A study of Mus musculus with 1 sample.

Results

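The genes described are 9 of the 32285 in the matrix: 6 ligands of the epidermal growth factor (EGF) receptor family (Hbegf, Areg, Tgfa, Btc, Ereg and Epgn) and 3 receptors (Egfr, Erbb2 and Erbb3). They were taken by name as members of 1 signalling family. The question was which of these ligands the cultured epithelium makes itself, and in which cells. The data are 1 droplet-based single-cell library from mouse gastric organoids, which are 3-dimensional epithelial cultures grown from stomach. The labels give wild type genotype, no treatment and epithelial cell as the cell type, and the cultures were taken on day 7 after seeding and dissociated for 30 min in trypsin. Strain, age, sex, medium, added EGF and the number of animals or cultures are not given in the sources used here. Organoids of the other genotypes that the series text names (KP and EKP) were not analysed here. Because only 1 library was analysed, there is no replicate, no test between groups was made, and every interval below is at 95% and covers counting error only.

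The EGF family ligands are made as transmembrane precursors, and metalloproteases cut them at the cell surface to release the soluble growth factor. They bind EGFR or related receptors, which pair up, phosphorylate each other and start the RAS, RAF, MEK and ERK kinase cascade. ERBB2 binds no known ligand and acts as a partner, while ERBB3 has very weak kinase activity and signals through its partners, mainly in response to neuregulins. In the stomach, TGFA and amphiregulin are known as growth factors of the mucosa, and raised TGFA is linked to overgrowth of the surface mucous cell layer. Heparin-binding EGF-like growth factor (HBEGF) is made by many epithelia and is quickly induced by stress and by ERK itself.

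Areg, Ereg, Epgn and Btc lie beside one another on mouse chromosome 5 (build GRCm38, GENCODE M21). Their order was Epgn at chr5:91027464-91035215, Ereg at chr5:91074622-91093646 and Areg at chr5:91139599-91148432, all on the plus strand, and then Btc at chr5:91357261-91402994 on the minus strand. Tgfa was at chr6:86195223-86275719 on the plus strand. The receptors were at chr11:16752203-16918158 (Egfr, plus strand), chr11:98412470-98437716 (Erbb2, plus strand) and chr10:128567523-128589652 (Erbb3, minus strand).

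RefSeq start-site windows on GRCm38.p6 were matched for 6 of the 9 genes (Areg, Tgfa, Epgn, Btc, Egfr and Erbb2). The 250 bases before the start are printed for Areg, Tgfa and Btc, because Areg and Tgfa had near levels but unlike spread over cells, and Btc is a neighbour of Areg on chromosome 5 with a lower level. Areg is chr5:91139349-91139598 on the plus strand, Tgfa is chr6:86194972-86195221 on the plus strand and Btc is chr5:91402995-91403244 on the minus strand. Capitals mark matches on either strand to a TATA box (TATAAA), a cAMP response element (TGACGTCA), a Sp1 GC box (GGGCGG), an AP-1 site (TGANTCA) or a TEAD site (CATTCC).
Areg: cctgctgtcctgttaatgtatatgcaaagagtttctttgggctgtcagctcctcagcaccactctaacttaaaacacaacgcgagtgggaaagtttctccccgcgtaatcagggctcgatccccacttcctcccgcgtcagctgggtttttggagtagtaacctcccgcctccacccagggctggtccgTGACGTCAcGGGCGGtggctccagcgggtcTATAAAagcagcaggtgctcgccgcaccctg
Tgfa: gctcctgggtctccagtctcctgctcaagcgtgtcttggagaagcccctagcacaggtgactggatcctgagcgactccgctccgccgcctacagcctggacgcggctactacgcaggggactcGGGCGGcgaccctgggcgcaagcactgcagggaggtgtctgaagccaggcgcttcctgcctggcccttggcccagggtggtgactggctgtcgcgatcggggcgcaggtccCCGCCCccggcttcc
Btc: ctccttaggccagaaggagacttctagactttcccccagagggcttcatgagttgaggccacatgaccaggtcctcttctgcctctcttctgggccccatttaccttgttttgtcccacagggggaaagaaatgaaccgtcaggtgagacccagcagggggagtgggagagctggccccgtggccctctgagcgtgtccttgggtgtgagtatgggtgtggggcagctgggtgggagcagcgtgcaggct
The Areg window held a cAMP response element 61 to 54 bases before the start, a GC box 52 to 47 bases before it and a TATA box 31 to 26 bases before it. None of these matches overlapped another. The Tgfa window held GC boxes 126 to 121 and 15 to 10 bases before the start, and the Btc window held none of the motifs searched. Of the other windows, Epgn had a TATA box, Egfr a GC box and Erbb2 a TEAD match, and no AP-1 match was present in any of the 6. Over 32851 windows of the same length, 12.4% held the TATA box, 1.55% the cAMP response element, 32.7% the GC box, 6.75% the AP-1 site and 12.6% the TEAD site. The GC content was 57.2% for Areg, 69.2% for Tgfa and 59.6% for Btc, with a median of 52.4% over all windows. These matches describe letters in the window and say nothing of binding.

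Of 1991 barcodes, 1892 had at least 500 detected genes and no more than 20% of UMIs (unique molecular identifiers, each counted as 1 captured RNA molecule) from mitochondrially encoded genes. After removal of 12 called doublets, 1880 cells with 19951439 gene UMIs remained, with a median of 8475.5 UMIs per cell and a range of 890 to 47183. The cells carried the epithelial markers of their label: Epcam was detected in 96.5% of cells, Krt8 in 97.9% and Krt18 in 99.6%. Krt19 was detected in 91.5% and Cdh1 in only 52.0%. Markers of differentiated stomach cells were uneven. Of the pit cell markers, Tff1 was found in 54.5% of cells, Gkn1 in 23.1%, Gkn2 in 16.8% and Muc5ac in only 2.29%. Tff2 and Cd44, listed for neck cells, were found in 7.02% and 23.5%. Other markers of neck, chief and parietal cells were rare or absent, with 1 UMI of Muc6, 71 of Pgc in 31 cells, 28 of Atp4a and none of Cblif or Atp4b. The 12 immune, stromal and endothelial markers held 288 UMIs in all, of which Cd68, a lysosomal protein that is not unique to macrophages, had 195. Lyz2, a lysozyme gene of macrophages and some epithelia, had 80 UMIs in only 9 cells. Ptprc and Col1a1 had 1 UMI each, and Col3a1, Dcn and Cdh5 had none. The levels below are those of a population that carried Epcam, Krt8 and Krt18 almost throughout.

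Hbegf was by far the most abundant ligand RNA. It had 12186 UMIs, or a CPM of 611 (600 to 622), where CPM is the number of UMIs of a gene per 1000000 gene UMIs of the same cells, and was detected in 86.0% of cells. Its level was above that of 98.8% of detected genes. Hbegf alone supplied 89.6% of the UMIs of the 6 ligands, and single cells held up to 68 of its UMIs, with a median of 4. No other ligand came near it. How much of this level arose during the 30 min in trypsin was not tested.

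Areg, which encodes amphiregulin, had 628 UMIs (31.5 CPM, 29.1 to 34.0). The ratio of Hbegf to Areg was 19.4 (17.9 to 21.1). Tgfa, which encodes transforming growth factor alpha, had 551 UMIs (27.6 CPM, 25.4 to 30.0). Areg was 1.14 times Tgfa (1.01 to 1.28), so their summed levels lay close together. Without the 62 cells of cluster 7, described below, the order turned, with Areg at 24.3 CPM and Tgfa at 28.2 CPM. The cells that held them differed: Areg was found in 14.6% of cells with up to 22 UMIs in a cell, and Tgfa in 22.3% with at most 5. The tenth of cells richest in Areg held 86.1% of its UMIs, against 57.9% for Tgfa and 35.5% for Hbegf. This share depends on how many cells hold a gene, and was 100% for the scarcer Btc, Ereg, Egfr and Epgn.

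Btc (betacellulin) and Ereg (epiregulin), both ligands of EGFR and of ERBB4, were near the limit of detection in single cells. Btc had 118 UMIs (5.91 CPM, 4.90 to 7.08) in 5.74% of cells. Ereg had 108 UMIs (5.41 CPM, 4.44 to 6.54) in 4.15% of cells. Their ratio of 1.09 (0.834 to 1.43) did not separate them. Epgn (epigen) had 2 UMIs in 2 cells, or 0.100 CPM (0.0121 to 0.362), which is below the limit of 0.150 CPM that 3 counts would set.

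Among the receptors, Erbb3 had the most RNA, with 989 UMIs (49.6 CPM, 46.5 to 52.8) in 36.8% of cells. Erbb2 followed with 711 UMIs (35.6 CPM, 33.1 to 38.4) in 27.9% of cells. Egfr, which encodes the receptor that binds all 6 ligands, had only 168 UMIs (8.42 CPM, 7.20 to 9.79) in 8.14% of cells. Erbb2 was thus 4.23 times Egfr (3.57 to 5.04), and Erbb3 was 1.39 times Erbb2 (1.26 to 1.53). The receptors together had 93.6 CPM, while the ligands had 681 CPM, or 70.5 CPM without Hbegf.

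**Figure D1:**
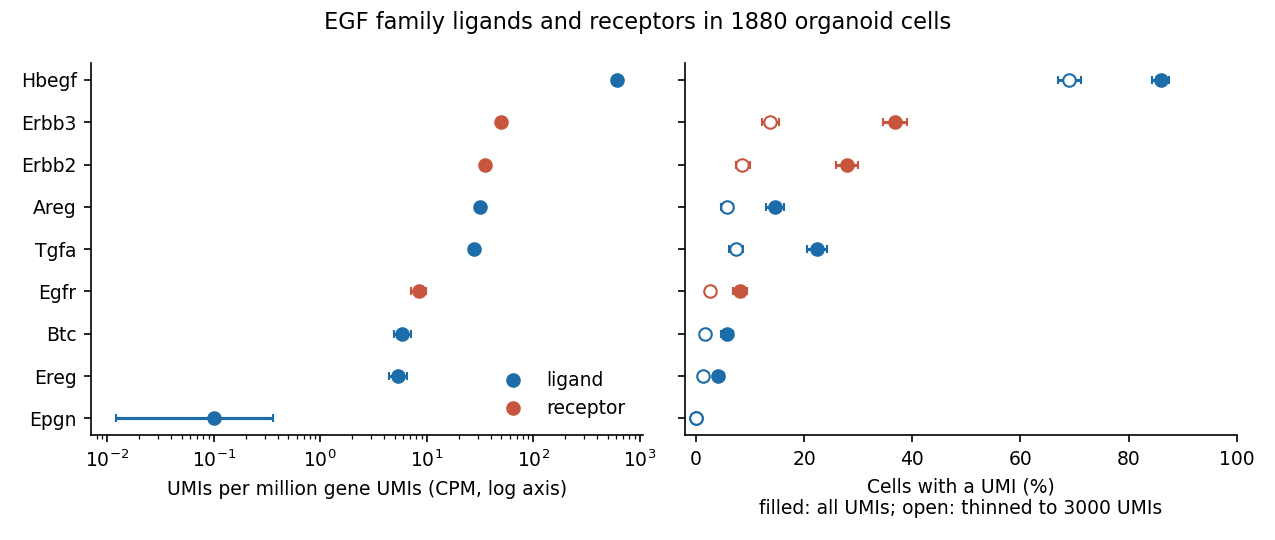
Left, CPM (log axis) of each ligand (blue) and receptor (red) summed over 1880 cells, with exact Poisson 95% intervals. Right, percent of cells with a UMI and its exact binomial interval, from all UMIs (filled) and after each cell was thinned to 3000 UMIs (open): Hbegf stands apart at 611 CPM and Epgn lies lowest at 0.100 CPM.

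A 3′ library counts a molecule irrespective of its length, so CPM was used to order the genes. Divided by the longest annotated transcript, the order began with Hbegf (211 CPM per kb), Areg (25.9), Erbb3 (8.24), Erbb2 (7.11) and Tgfa (6.1). It ended with Btc (1.47 CPM per kb), Ereg (1.31), Egfr (0.825) and Epgn. Hbegf and Epgn kept the first and last place on both scales, while Areg stood at place 4 by CPM (below Tgfa without cluster 7) and 2 per kb, and Egfr at place 6 and 8.

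Shares of cells depend on depth, so they were also computed after each of 1823 cells was thinned to 3000 UMIs. Hbegf was then found in 69.1% of cells, Erbb3 in 13.7%, Erbb2 in 8.61%, Tgfa in 7.35%, Areg in 5.76%, Egfr in 2.58%, Btc in 1.76% and Ereg in 1.37%. Epgn was not found in any of them. RNA free in the droplets also yields UMIs, and this library has no cell type that should lack these genes, so the lowest shares are not read as expression by single cells. With all UMIs, 702 of 1880 cells (37.3%) held a ligand other than Hbegf. No ligand was detected in 202 cells (10.7%), and no receptor in 863 (45.9%).

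Other ligands of the family were scarce in the same cells. Egf itself had 8 UMIs (0.401 CPM) and Nrg1, which encodes a neuregulin that binds ERBB3, had 38 (1.90 CPM). Nrg2 had 1 UMI, Nrg4 had 7 and Nrg3 had none, and the fourth receptor, Erbb4, had 2. The sheddases that release the ligands were present: Adam10 had 33.3 CPM and Adam17, the main protease for HBEGF, amphiregulin and TGFA, had 22.9 CPM. Rhbdf1 and Rhbdf2, which encode the iRhom partners that ADAM17 needs to mature, had 10.9 and 6.42 CPM.

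Downstream of the receptors, the adaptor genes Grb2 and Shc1 had 48.9 and 25.2 CPM, and the ERK gene Mapk3 and the MEK gene Map2k2 had 109 and 104 CPM. Errfi1, which encodes an inhibitor of the EGFR kinase, had 185 CPM, and Lrig1, which encodes a protein that promotes receptor degradation, had 23.2 CPM. Genes induced by the cascade spanned a wide range, with Fos at 2338 CPM, Egr1 at 1001, Ier3 at 634 and Phlda1 at 324 as the highest. Lower among them were Dusp5 at 145 CPM, Dusp6 at 93.3, Myc at 44.6, Etv5 at 10.6, Etv4 at 8.42, Fosl1 at 7.07 and Spry4 at 5.36. Fos and Egr1 are also known to be induced when tissue is dissociated. The part of the 30 min in trypsin in their level, or in that of Hbegf, was not tested.

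**Figure D2:**
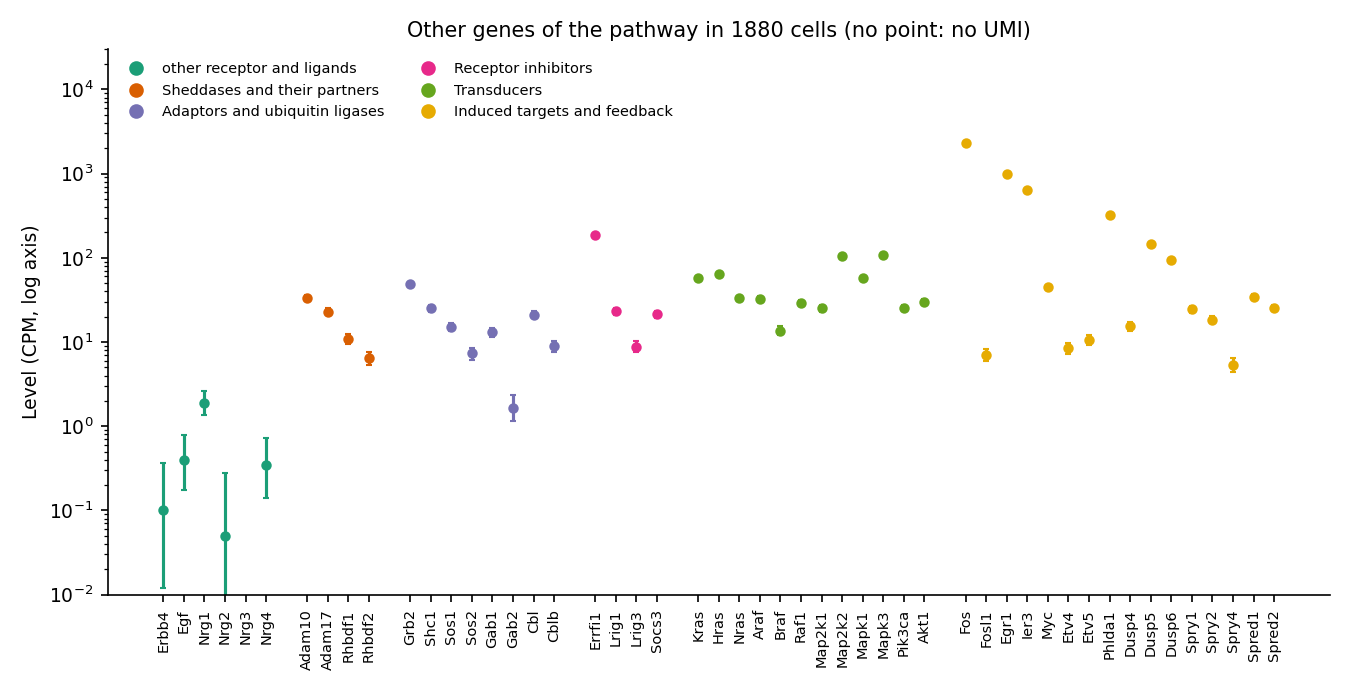
Levels (CPM, log axis) of 50 other genes of the pathway in 1880 cells by role, with exact Poisson 95% intervals. The neuregulins, Egf and Erbb4 lie at or under 1.90 CPM, and Fos, Egr1 and Ier3 lie above 600 CPM.

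To see which cells held each gene, cells were grouped into 7 clusters from variable genes. These excluded the 9 family genes, the listed pathway genes and a list of cell cycle genes. Cell cycle genes outside that list, such as Aspm, were not excluded. Clusters 1 to 5 held 398, 358, 339, 339 and 291 cells, and were led in turn by Cxcl5, AC168977.1, Aox3, Ly6m and Psca. Their summed pit markers lay between 101 and 286 CPM, and none was given a cell type name. Cluster 6 (93 cells, led by Aspm) was proliferating-like, with all 7 proliferation markers detected in over 10% of its cells. Cluster 7 met the same count, with 759 CPM of these markers against 1249 CPM in cluster 6, but its leading genes were others. This cluster (62 cells, led by Cyba, Reg3g, Gm3776, Gsta2 and Pgc) stood apart and was left unnamed. It had 5223 CPM of summed pit markers, 64.5% of its cells were called S or G2/M phase, and its median of 14263 UMIs compares with 8272.5 in the other cells. A Y-linked UMI was found in 53.2% of its cells and in 0.935% of the others, and Xist in 25.8% against 78.4%. Whether these cells came from another animal or culture was not tested, and values that rest on them are given with and without them where both exist.

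Areg was the ligand that differed most between clusters. Its level was 22.0, 21.2, 12.9, 30.2, 37.8 and 14.9 CPM in clusters 1 to 6, and 169 CPM (145 to 197) in cluster 7. The cluster 7 interval lay clear of all the others, and the level was 6.97 times that of all other cells (5.81 to 8.34). In a coarser clustering at resolution 0.3, which merged clusters 6 and 7, the ratio was 3.50 (2.94 to 4.17). Cluster 7 held 26.8% of all Areg UMIs in 62 cells. An Areg UMI was found in 33 of its 62 cells, and in 242 of the 1818 others (13.3%). At equal depth, after thinning, the shares were 29.5% (18.5 to 42.6) and 4.94%. The UMIs were uneven within the cluster, where 5 cells held 10 or more and the highest held 22. Without cluster 7, Areg was at 24.3 CPM, and it remained detectable in each of the other clusters. Areg was lowest in cluster 3, at 0.374 times the other cells (0.258 to 0.526), and in cluster 6, at 0.457 times (0.273 to 0.720). Against the other cells without cluster 7 these ratios were 0.492 (0.338 to 0.695) and 0.598 (0.357 to 0.945).

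Hbegf showed a different order. Its level was 767, 303, 637, 527, 768, 629 and 394 CPM in clusters 1 to 7. It was lowest in cluster 2, at 0.463 times the other cells (0.429 to 0.498), and next lowest in cluster 7, at 0.633 times. Clusters 1 and 5 were highest, at 1.38 and 1.31 times the other cells. Cluster 2 also had the fewest UMIs per cell, with a median of 6090.5. At equal depth, after thinning, Hbegf was found in 48.2% of its cells (42.8 to 53.7) and in 73.8% of the others. In every cluster Hbegf supplied most ligand UMIs, from 64.5% in cluster 7 and 85.4% in cluster 2 to 94.4% in cluster 3. The other ligands together came to 217 CPM (189 to 248) in cluster 7 and to 37.9 CPM in cluster 3, where they were lowest.

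Tgfa varied less, from 16.2 CPM in cluster 3 to 35.5 CPM in cluster 4. Cluster 3 was at 0.550 times the other cells (0.395 to 0.749), but at 0.889 times (0.749 to 1.05) in the coarser clustering and 0.650 times (0.373 to 1.07) after thinning. Cluster 4 was at 1.40 times (1.16 to 1.69), with 1.16 (0.975 to 1.38) in the coarser clustering and 1.44 (0.951 to 2.14) after thinning. The cluster 4 ratio was 1.13 (0.859 to 1.48) among cells with multiplexing tag CMO301 and 1.76 (1.34 to 2.31) among those with CMO302. Such tags serve to mark cell suspensions before pooling, but what these 2 marked is not given. Unlike Areg, Tgfa was not higher in cluster 7, where it had 17.1 CPM. Btc was at 19.1 CPM (11.5 to 29.9, 19 UMIs) in cluster 7, which is 3.67 times the other cells (2.12 to 6.03), and lay between 2.57 and 9.42 CPM in clusters 1 to 6. Its cluster 7 ratio was 4.53 (2.38 to 8.10) among CMO301 cells and 2.10 (0.546 to 5.80, 4 UMIs) among CMO302 cells, where the interval includes 1. Among CMO302 cells Btc was highest in cluster 6, at 15.6 CPM (6.26 to 32.1, 7 UMIs). After thinning, the Btc ratio of cluster 7 was 2.99 (0.582 to 9.64), an interval that also includes 1. Ereg had 11.1 CPM (5.53 to 19.8) in cluster 7 from 11 UMIs, and lay between 3.66 and 6.76 CPM elsewhere. The 2 Epgn UMIs fell in clusters 1 and 3.

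Among the receptors, Erbb3 ran from 30.2 CPM in cluster 7 to 60.2 CPM in cluster 4, and Erbb2 from 14.1 CPM in cluster 7 to 41.5 CPM in cluster 1. Cluster 7 was thus lowest for both, at 0.597 times the other cells for Erbb3 (0.401 to 0.859) and 0.384 times for Erbb2 (0.209 to 0.648, 14 UMIs). The Erbb2 ratio was 0.698 (0.520 to 0.920) in the coarser clustering. Egfr had 10.9, 10.7 and 9.35 CPM in clusters 1, 4 and 5, with overlapping intervals, and was lowest in cluster 3, at 3.31 CPM or 0.359 times the other cells (0.161 to 0.698). Its order among the higher clusters differed by multiplexing tag, since the ratio of cluster 1 to other cells was 2.18 (1.40 to 3.36) among cells with tag CMO301 and 0.852 (0.484 to 1.44) among those with CMO302. Summed, the receptors had 51.4 CPM (38.3 to 67.5) in cluster 7, the cluster with the most Areg, and 112 CPM in cluster 4.

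**Figure D3:**
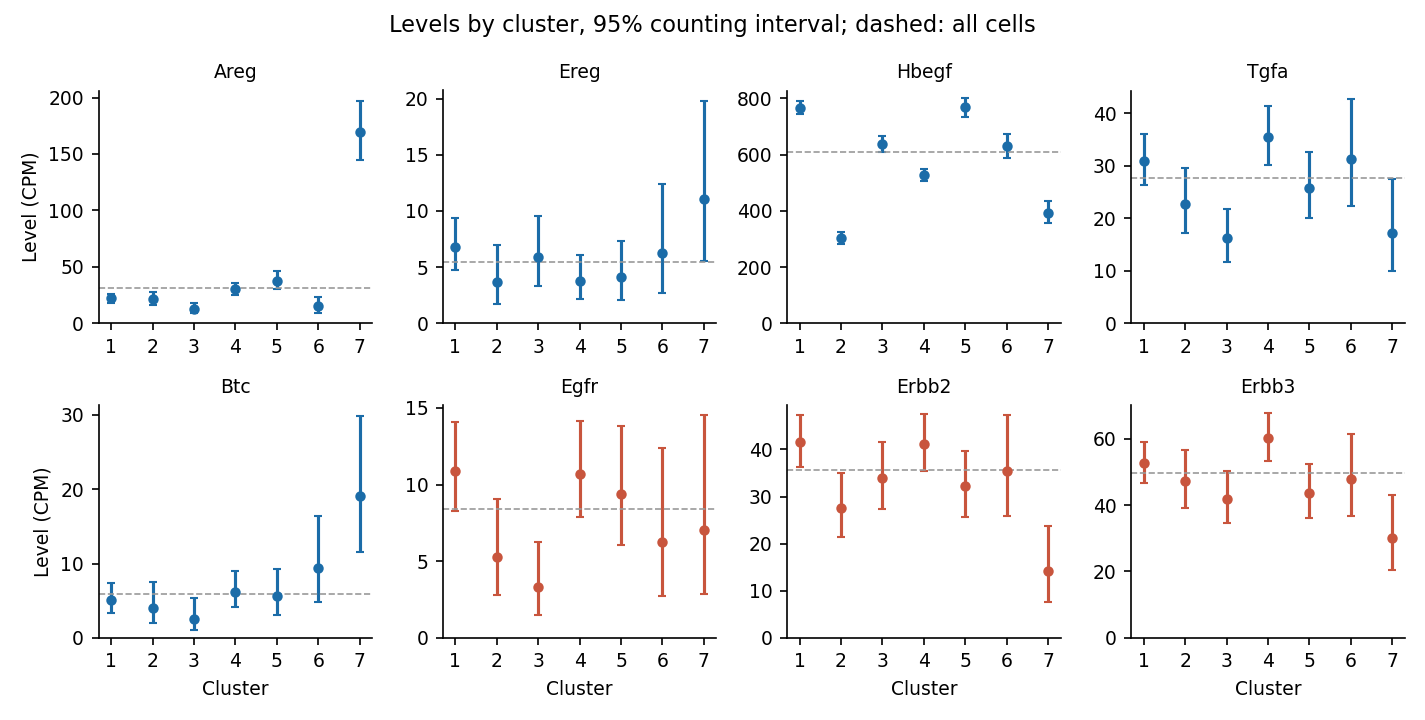
Level (CPM) of 8 ligands and receptors in clusters 1 to 7, with exact Poisson 95% intervals and a dashed line at the level in all 1880 cells. Each panel has its own axis from 0: Areg stands at 169 CPM in cluster 7, Hbegf is lowest in cluster 2 at 303 CPM and Erbb2 is lowest in cluster 7 at 14.1 CPM.

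A difference of 2-fold was counted for genes with at least 100 UMIs over all cells, which 8623 genes and 8 of the 9 family genes reached (all but Epgn). In cluster 7, 3 of the 8 family genes were at least 2 times the other cells (Areg, Ereg and Btc), where 8.78% of all genes were, and 1 of the 8 was at most 0.5 times (Erbb2), where 8.63% were. The median ratio in cluster 7 was 0.732 for the family genes and 1.05 for all genes. In cluster 3, 3 of the 8 were at most 0.5 times the other cells (Areg, Btc and Egfr), where 4.6% of all genes were, and the medians were 0.688 and 0.870. These counts rest on small numbers, 9 Egfr and 7 Btc UMIs in cluster 3 among them. Hbegf in cluster 2 was 1 of 8 at most 0.5 times, against 9.1% of all genes, and Areg in cluster 6 was 1 of 8, against 2.41%. Several of these calls depend on how cells were clustered. Areg in cluster 6 was above 0.5 times at resolution 1.0 (0.584), with 3000 variable genes (0.557), with doublets kept (0.535) and with cluster 7 left out of the other cells. In cluster 3, Areg was at 0.518 with 3000 variable genes, and Egfr at 0.517 with another seed and 0.546 with doublets kept. At resolution 0.3, the cluster that matched cluster 3 best gave 0.579 for Areg, 0.619 for Btc and 1.02 for Egfr, and the merged clusters 6 and 7 gave 3.50 for Areg, 1.55 for Ereg and 0.698 for Erbb2. Hbegf in the match of cluster 2 was at 0.644 there. Of the calls, those of Areg and Btc in cluster 7 alone stayed past 2-fold at resolution 0.3, and Ereg in cluster 7 was at 0.307 among CMO301 cells. None of the 8 was at least 2 times the other cells in clusters 2, 3 and 6, where 0.267%, 0.302% and 3.53% of all genes were. In clusters 1, 4 and 5 none of the 8 differed by that much in either direction, where 1.41%, 1.19% and 0.267% of all genes were at least 2 times and 1.33%, 3.71% and 4.17% at most 0.5 times.

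Other genes of the pathway were mostly lower in cluster 7, unlike Areg. Of 50 pathway genes, 43 had at least 100 UMIs, and 8 of the 43 were at most 0.5 times the other cells, where 8.63% of all genes were. Only Lrig3 was at least 2 times, where 8.78% of all genes were. Fos was at 959 CPM in cluster 7 and 2410 CPM elsewhere, and Egr1 had 469 and 1029 CPM. Dusp6, an ERK phosphatase gene induced by ERK, was at 40.3 CPM there and 96.1 CPM elsewhere. Errfi1 was at 89.7 and 190 CPM, and the remaining 4 were Shc1, Cblb, Lrig1 and Socs3. The median ratio of the 43 genes was 0.735, against 1.05 for all genes. In cluster 2, where Hbegf was lowest, 7 of the 43 were at most 0.5 times the other cells (Lrig1, Braf, Fosl1, Myc, Etv5, Dusp5 and Spred1), where 9.1% of all genes were, with a median of 0.710 against 0.813 for all genes. Dusp5, which encodes another ERK phosphatase, had 73.2 CPM in cluster 2 and 155 CPM in the other cells.

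Across cells, the genes most like Hbegf were transcription factors of the immediate early response. By Pearson r of ln-transformed levels over 1880 cells, among 3821 genes with at least 500 UMIs, the closest were Fosb (0.447), Atf3 (0.411) and Fos (0.402). Without cluster 7 the values were 0.448, 0.414 and 0.405, and after thinning they were 0.257, 0.296 and 0.318. All points share 1 library, and depth per cell enters each value. For Areg the closest gene was Gsta1, at 0.207, with 0.0228 without cluster 7. It was followed by Phgr1, at 0.162 and 0.0950, and S100a6, at 0.126 and 0.109, all weak. The 3 closest genes of Tgfa, Erbb2 and Erbb3 were all at or below 0.132, which in such sparse counts is no finding.

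When cells were ordered by their summed Fos and Egr1 share and split into 5 bins of 376 cells, Hbegf was 271, 483, 630, 732 and 884 CPM from the lowest bin to the highest. Each bin was above the one before it, and the highest was 3.26 times the lowest (3.03 to 3.51). Errfi1 and Dusp6, which are also induced by ERK, had ratios of 1.97 and 2.38 across the same range. The ratio was 1.37 for Tgfa (1.01 to 1.85) and 1.33 for Erbb3 (1.07 to 1.66). The Tgfa interval included 1 without cluster 7 (1.23, 0.905 to 1.67), with Fosb in place of Fos and Egr1 (1.13, 0.838 to 1.52) and within cells of 5000 to 15000 UMIs (1.37, 0.933 to 2.02). The Erbb3 interval included 1 in those depth-limited cells (1.21, 0.897 to 1.63). For Ereg the ratio was 1.56 (0.807 to 3.15), with 1.72 (0.675 to 4.75) in the depth-limited cells, 2.57 (1.17 to 6.2) with Fosb and 5.42 (1.90 to 21.3) without cluster 7, where the lowest bin held 4 UMIs. Areg was highest in the lowest bin, at 55.6 CPM against 29.6 CPM in the highest, but without cluster 7 the ratio of highest to lowest went from 0.533 to 1.33 (0.980 to 1.82). Median depth was 7181 UMIs in the lowest bin and 8661 in the highest, and 32.4% against 7.45% of the cells were of cluster 2. Within cells of 5000 to 15000 UMIs the Hbegf ratio was 3.68. The ordering was chosen after the likeness of Hbegf to Fos had been seen, so it describes that likeness and is no separate evidence of it.

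**Figure D4:**
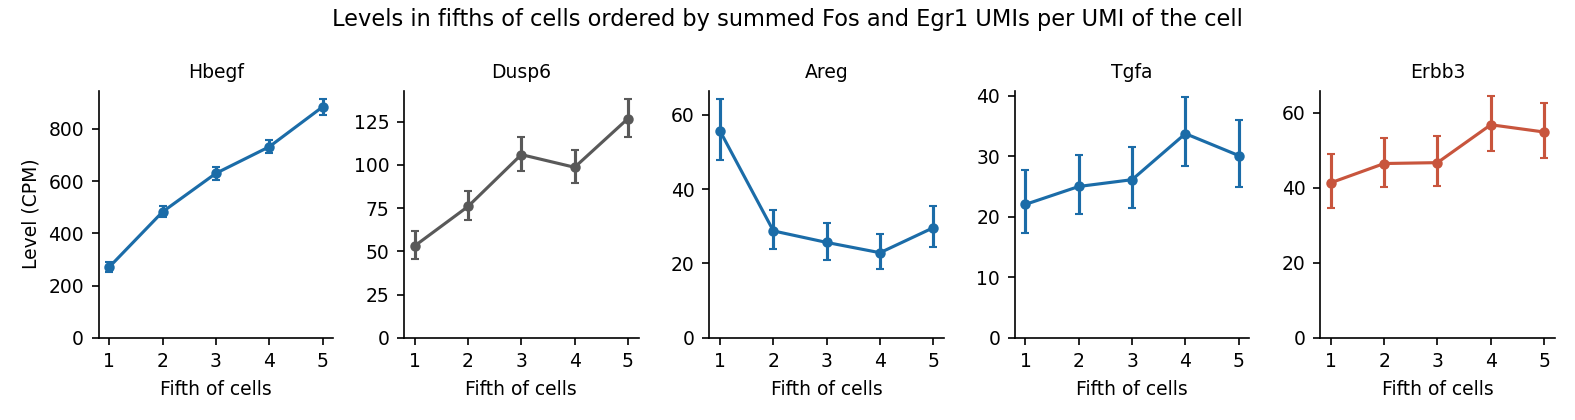
Level (CPM, axes from 0) of 5 genes in 5 bins of cells (376 each) ordered from the lowest (1) to the highest (5) share of Fos and Egr1 UMIs, with exact Poisson 95% intervals. Hbegf goes from 271 to 884 CPM, whereas Areg is highest in the first bin at 55.6 CPM.

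Of the 1880 cells, 476 were called S or G2/M phase and 1404 G1, with median depths of 8159 and 8660.5 UMIs. Areg was the family gene that differed most with phase, at 52.6 CPM in cycling cells and 24.7 CPM in G1 cells, a ratio of 2.13 (1.81 to 2.50). It was 1 of 8 family genes at least 2 times higher in cycling cells, where 2.49% of all genes were, and none was at most 0.5 times, where 0.255% were. With cycling cells read from a UMI of Mki67 or Top2a in place of phase scores the ratio was 1.29 (1.09 to 1.51), which is under 2-fold. Without cluster 7, which is rich in both Areg and cycling cells, it was 1.40 (1.14 to 1.73). Within clusters it was 2.23 in cluster 1 (1.41 to 3.43) and 2.49 in cluster 4 (1.63 to 3.72), while in clusters 2, 3, 5 and 7 it lay between 1.15 and 1.32 with intervals that include 1. The ratios of clusters 1 and 4 rest on 29 and 33 Areg UMIs in 62 and 48 cycling cells. Single cells outside cluster 7 held up to 18 Areg UMIs, and the intervals treat each UMI as independent. Cluster 6, in which every cell was called cycling, had only 14.9 CPM of Areg. Hbegf was slightly lower in cycling cells, at 0.921 times (0.882 to 0.961), as was Erbb3 at 0.828 times (0.707 to 0.967). Neither interval excludes 1 when cycling is read from Mki67 or Top2a, where Hbegf was at 0.982 times (0.946 to 1.02) and Erbb3 at 0.965 times (0.844 to 1.10). Without cluster 7 Hbegf was at 0.967 times (0.925 to 1.01), and its direction differed between clusters, from 0.774 in cluster 4 (0.670 to 0.891) to 1.35 in cluster 3 (1.19 to 1.53). For Tgfa the ratio was 0.816 (0.658 to 1.01).

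**Figure D5:**
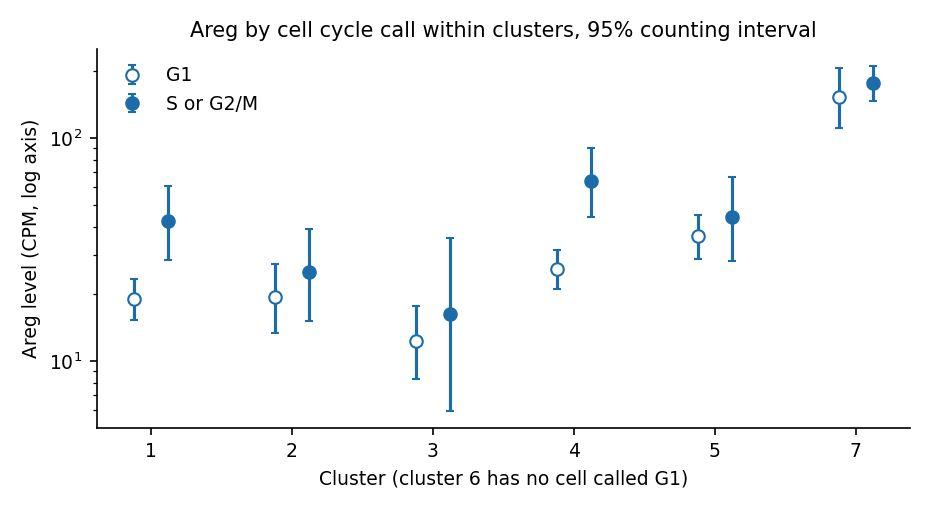
Level of Areg (CPM, log axis) in cells called G1 (open) and S or G2/M (filled) within each cluster that holds both, with exact Poisson 95% intervals. The intervals of the 2 calls lie apart in clusters 1 and 4, and overlap in clusters 2, 3, 5 and 7. They treat each UMI as independent and leave out spread between cells.

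The matrix also counts multiplexing tags, which mark cell suspensions before they are pooled, and in every kept cell the highest was 1 of 2 tags, CMO301 or CMO302. What each tag marked is not given in the sources used here. The family genes had near levels with both tags. The ratio of CMO301 to CMO302 cells was 1.01 for Hbegf (0.972 to 1.04), 0.941 for Areg, 1.0 for Tgfa, 1.10 for Erbb2, 1.02 for Erbb3 and 1.29 for Btc (0.880 to 1.92). Of the 8 genes none differed 2-fold, where 0.058% of all genes were at least 2 times and 0.116% at most 0.5 times. Within cluster 7, the Areg ratio to other cells was 5.48 among CMO301 cells (4.21 to 7.05) and 9.31 among CMO302 cells (7.16 to 12). Ereg was different, since 10 of its 11 cluster 7 UMIs came from CMO302 cells and 1 from CMO301 cells. Its ratio was 5.38 (2.40 to 10.9) with CMO302 and 0.307 (0.00765 to 1.78) with CMO301, so the higher level of Ereg in cluster 7 was seen with CMO302 alone.

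An Hbegf UMI and a UMI of any of the 3 receptors were found together in 904 cells (48.1%), or in 15.7% of cells after thinning. All 3 receptors were detected together in 33 cells (1.76%). After thinning, Egfr was found in 2.62% of cells with Hbegf and in 2.48% of cells without it, a gap smaller than the counting error of either share. Areg was found in 5 of 25 cells with Ereg (interval 6.83% to 40.7%) and in 5.56% of cells without it (4.55 to 6.72), with both genes highest in cluster 7. Outside cluster 7 the shares were 4 of 22 (18.2%, 5.19 to 40.3) and 4.77%, from few cells.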

How the data were processed

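The deposited matrix holds UMI counts, which the authors deposited as whole numbers without normalization. It was written by Cell Ranger 6.1.2, per the file headers and the submitters' processing notes, which name GRCm38 and mm10. From these counts, barcodes with at least 500 genes and at most 20% mitochondrially encoded UMIs were kept (1892 of 1991), and 12 doublets called by Scrublet (scanpy 1.11.5) were removed. Tags stayed out of all totals. Counts were scaled to 10000 per cell and ln(x + 1) transformed, and clusters came from leidenalg 0.10.2 (resolution 0.6) on 2000 variable genes, with 30 components and 15 neighbours. The excluded genes were the family, listed pathway, listed cell cycle, sex-linked and mitochondrially encoded ones. CPM carries exact Poisson intervals, shares Clopper-Pearson intervals and ratios conditional binomial intervals. Shares were repeated after thinning to 3000 UMIs. Ratios and intervals were tested on simulated counts in which UMIs were independent, so extra spread between cells was not covered. Thinning was checked on cells of the library. Named genes were the 9 family genes, a list of 50 pathway genes, cell type markers, the 3 genes most correlated with each family gene of at least 500 UMIs, and the 5 leading genes of a cluster. The family genes, lists and tests were chosen with earlier results of these data known. Alternatives covered the cell filter, doublets, clustering, thinning, tags, phase calls, the gene filter and cluster 7.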

Additional observations from a re-analysis of the deposited data

Results flagged for a closer look

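The 99 barcodes that failed the cell filter were outside every comparison, and held 118582 UMIs with a median of 901. At that depth 3 counts correspond to 25.3 CPM, and 4 of the genes lay above this. Hbegf had 58 UMIs there (489 CPM, 371 to 632), an interval that includes its 611 CPM in the kept cells. Areg had 7 UMIs (59.0 CPM, 23.7 to 122). Erbb2 and Erbb3 had 10 UMIs each (84.3 CPM, 40.4 to 155), an interval above the 35.6 CPM of Erbb2 in the kept cells and including the 49.6 CPM of Erbb3. Whether these UMIs came from damaged cells or from free RNA was not tested.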

How the results depend on the processing

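No paired analysis was possible because only 1 library was analysed. There were 298 values over 72 results and 27 alternatives. Of the values of the main results, 102 stayed within their counting interval (for counts of genes, within 1.5 times), 36 did not and 1 reversed. The 2-fold calls of Areg, Btc and Egfr in cluster 3 and of Areg in cluster 6 were not among the main results. They were counted with single genes and clusters. Of the values of single genes and clusters, 126 stayed, 30 did not and 3 reversed. Among these, ranks were judged by equality and Pearson r by a change of less than 0.05. Leaving cluster 7 out of the comparison cells, an alternative chosen after seeing the data, reversed none of 12 ratios. Thinning to 3000 UMIs gave levels of 28.5 CPM for Areg, 31.1 CPM for Erbb2 and 0 for Epgn, and shares of 5.76% for Areg, 1.37% for Ereg, 69.1% for Hbegf, 7.35% for Tgfa, 0% for Epgn, 1.76% for Btc, 2.58% for Egfr, 8.61% for Erbb2 and 13.7% for Erbb3. Cells with Hbegf and a receptor were 48.1% without thinning. Without cluster 7, Areg was at 24.3 and Hbegf at 622 CPM, and the ratios of cycling to G1 cells were 1.40 for Areg and 0.967 for Hbegf. Cycling cells defined by a UMI of Mki67 or Top2a gave 1.29 and 0.982. Within clusters 2, 3, 5 and 7, as an alternative chosen after seeing the data, the Areg phase ratio was 1.28, 1.32, 1.23 and 1.15. Clustering at resolution 0.3 gave 3 clusters and merged clusters 6 and 7 into a cluster of 146 cells. Its ratios were 3.50 for Areg, which for cluster 6 is a reversal, and 0.698 for Erbb2. There the match of cluster 2 gave 0.644 for Hbegf, and that of cluster 3 gave 1.02 for Egfr, a reversal. The Hbegf ratio of cluster 2 was 0.427 with 30 neighbours and 0.425 with doublets kept. By tag, the cluster 7 ratios were 5.48 (CMO301) and 9.31 (CMO302) for Areg, 0.307 (CMO301, a reversal) and 5.38 (CMO302) for Ereg, and 2.10 (CMO302) for Btc, and the cluster 1 ratio of Egfr was 0.852 (CMO302, a reversal). Counts of 2-fold higher family genes and clusters went from 3 to 1 with genes of at least 500 UMIs and to 5 with no filter, where 2-fold lower ones went from 6 to 11. Among cells of 5000 to 15000 UMIs, an alternative chosen after seeing the data, the Hbegf ratio between the highest and lowest Fos and Egr1 bins was 3.68. Shares of cells after thinning and counts under another gene filter change by construction. The cause of the other shifts, those of levels after thinning among them, was not tested. With a single library, spread between animals or cultures is unknown, and for Ereg, Btc and Egfr depth allows only wide intervals per cluster.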
